A study of Mus musculus with 8 samples.

Results

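Chemokines, cytokines, their receptors, and the subunits, inhibitors and targets of the transcription factor NF-kB were followed in sorted lung epithelial cells of mice. The set holds 40 genes, chosen by name with earlier results of these data known. Each either carries an NF-kB signal, restrains it or is a secreted or surface product commonly read as its output. They are 40 of the 43432 genes in the count table, and 36 of them were among the 14906 genes with enough counts to be tested. RNA sequencing was done on 8 libraries from the lungs of C57BL/6J mice aged 14 weeks, with no treatment named in the labels. Wild-type mice (WT, n = 3) gave all EpCAM+CD45- cells, the gate that holds epithelial cells and leaves out CD45+ blood cells. Heterozygous (C/+, n = 3) and homozygous (C/C, n = 2) mice carry ChiaRed, a reporter of Chia1, the gene of acidic mammalian chitinase (AMCase). From these mice the red, ChiaRed+ fraction of the same gate was taken.

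NF-kB is a family of dimers built from the products of Rela, Relb, Rel, Nfkb1 and Nfkb2. In resting cells, IkB proteins hold the dimers inactive in the cytoplasm. Receptors for IL-1, TNF and microbial products switch on a kinase that destroys the IkB proteins, and the freed dimers then drive genes that include Nfkbia and Tnfaip3, which shut the signal off again. In the lung, epithelial cells answer such signals with CXC chemokines that call in neutrophils, while Cxcl15 (lungkine) is made by lung epithelium without challenge.

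Library totals ranged from 17057216 to 52319957 counts, and levels are given as CPM, counts brought to a common library size and corrected for library composition. The epithelial label held: Epcam stood at 157 to 202 CPM and Sftpc, the surfactant protein C gene of alveolar type 2 cells, at 104356 to 166725 CPM in every library. Ptprc, which encodes CD45, stood at 0.118 to 1.80 CPM, and Cd3e, a T cell gene, had no count in 5 libraries and at most 0.0558 CPM in the rest. Chia1 was at 223 to 341 CPM in C/+ and 267 to 454 CPM in WT, but at 1.45 and 0.365 CPM in the C/C libraries. Groups also stood apart in other cells' genes and in stress genes, and these values are set beside the results below: 12 endothelial markers summed to 572 to 960.4 CPM in C/+ against 58.5 to 291 CPM elsewhere, and 8 heat shock genes to 1034 and 2199 CPM in C/C against 308 to 702 CPM elsewhere. By Xist and Y-linked counts the C/C libraries were female, and WT and C/+ held either sex. In such bulk libraries fewer cells of a type and less RNA per cell cannot be told apart. No label ties each library to its own animal, so p-values measure the spread between these libraries. As WT and C/+ each held libraries of both sexes, neither group came from a single animal. Libraries of the same sex, the C/C libraries among them, may still be technical repeats. A gene is described as called where its Benjamini-Hochberg adjusted p was under 0.05 in the edgeR quasi-likelihood test over all 14906 genes. For genes of the set, calls made only by another test or filter are named as such.

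The DNA just before the start of these genes shows which of them carry a written NF-kB recognition sequence. RefSeq promoter sequence on GRCm38.p6 was found for 31 of the 40 genes. The kappaB consensus, searched on either strand in the 250 bases before each start, matched in 13 of the 31 genes (41.9%), beside 1204 of 27025 mouse genes (4.46%) over windows of the same length. Because the set was chosen for its ties to NF-kB, its share is not independent of that choice. The AP-1 letters TGANTCA, the recognition sequence of the Fos and Jun proteins, matched in 5 of the 31 (16.1%), beside 7.82% of all genes. The matches below are shown because these genes carry the results that follow: first the inhibitor Nfkbia, then the other genes with a change in at least 1 comparison, and then the neutrophil chemokines, which stayed low. Each is 30 bases written 5′ to 3′ on the gene's strand, with the kappaB match in capitals. The capitals run longer where matches overlap, and the coordinates given for each gene are those of the 30 bases.
Nfkbia: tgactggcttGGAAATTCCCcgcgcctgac
Csf1: gggccttgagGGAAAGTCCCtaggggccag
Il1r1: cagggattttGGAATGCCCCcaaggagatg
Nfkb2: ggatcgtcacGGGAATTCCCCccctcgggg
Cxcl1: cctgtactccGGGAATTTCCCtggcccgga
Cxcl2: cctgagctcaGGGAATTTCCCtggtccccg
Cxcl3: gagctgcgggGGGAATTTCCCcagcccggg

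The Nfkbia match lies 29 bases before the start, within chr12:55492657-55492686 on the minus strand. That of Csf1 lies 154 bases before its start (chr3:107760604-107760633, minus strand), that of Il1r1 232 bases before the inner of its 2 starts (chr1:40266344-40266373, plus strand; the window before the outer start holds none) and that of Nfkb2 39 bases before 1 of its starts (chr19:46304688-46304717, plus strand). The 3 neutrophil chemokine genes lie close together on chromosome 5 and show the same capital letters, lying 71 bases before the start in Cxcl1 (chr5:90891164-90891193), 97 in Cxcl2 (chr5:90903792-90903821) and 73 in Cxcl3 (chr5:90786018-90786047), all on the plus strand. Nfkb2 also had matches 236 and 225 bases before its other starts, and 3 in all in the 250 bases before the start shown. Ccl20, Il6, Nfkbie, Rel, Tnfaip3 and Tnip1 matched as well. Among genes with a change described below, Nfkbib, Cxcl12 and Cx3cl1 had an entry without a match, and Nfkbiz and Cxcl16 had no entry. A match is a description of the letters and not evidence of binding.

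The 40 genes spanned levels from Cxcl15, above all others, to genes with almost no counts. Averaged over the 8 libraries, 23 genes stood at 10 CPM or more, 6 between 1 and 10 CPM, and 11 under 1 CPM. Compared per kilobase of exon, the highest was Cxcl15 (4989 CPM per kilobase), followed by Icam1 (127), the adhesion molecule that leukocytes hold on to, Cxcl17 (48.2), a mucosal chemokine, Tnfrsf1a (43.1), the main TNF receptor, and Nfkbia (40.9). The step from Cxcl15 to Icam1 was by far the widest among the 5.

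**Figure D1:**
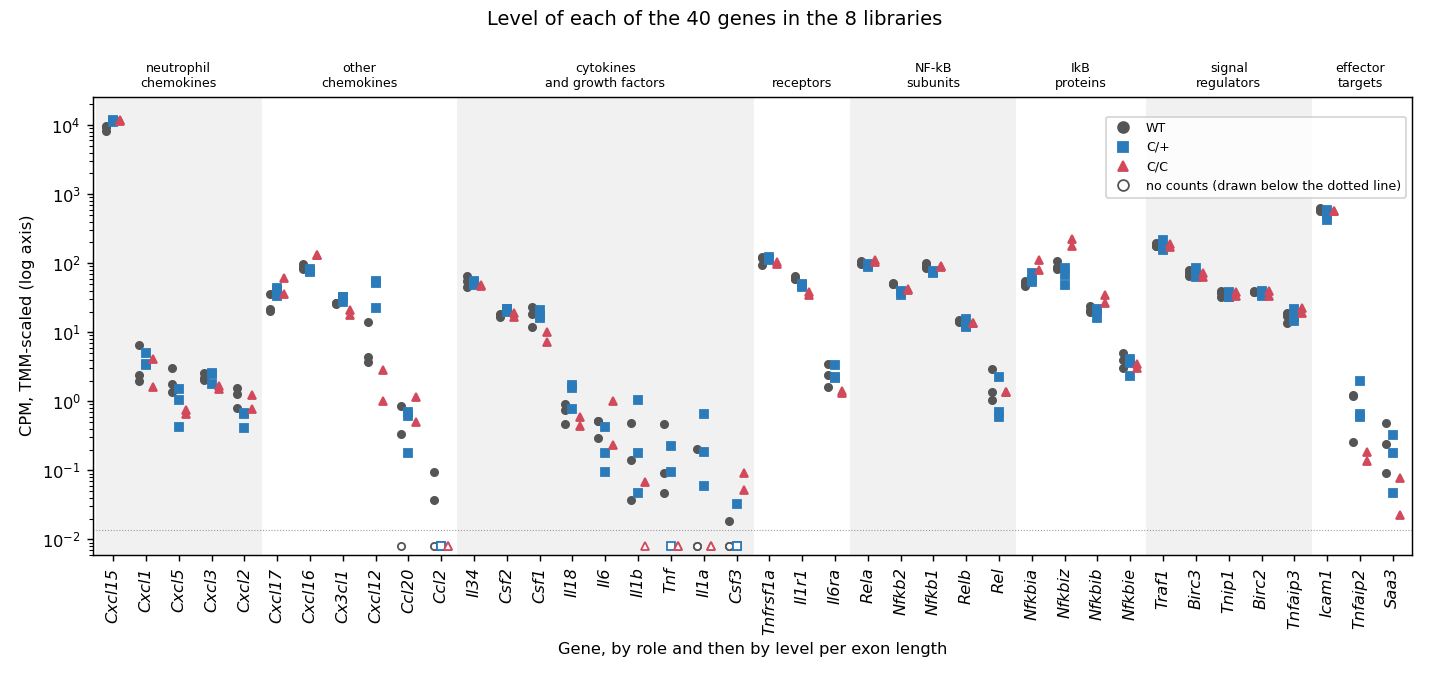
Level of each of the 40 genes (vertical log axis, CPM) in each library, grouped by role and ordered by level per exon length within a role; circles are WT, squares C/+ and triangles C/C, and open symbols are libraries with no count. Cxcl15 sits at 8172 to 12041 CPM, the NF-kB subunits and signal regulators mostly at 10 CPM or more, and the inflammatory cytokines mostly under 1 CPM.

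The neutrophil chemokines split into Cxcl15 and the rest. Cxcl15 measured 8172, 9258 and 9811 CPM in WT, 11035, 11458 and 12041 CPM in C/+, with 11393 and 11722 CPM in C/C. Every reporter library was above every WT library, but neither reporter group passed the test against WT (edgeR log2 fold change 0.34, SE 0.10, adjusted p = 0.102 for C/+, and 0.35, SE 0.12, adjusted p = 0.117 for C/C). The DESeq2 Wald test did call Cxcl15, in C/+ against WT (adjusted p = 0.0125) and in C/C against WT (0.0233). C/C and C/+ differed by a log2 value of 0.01 (SE 0.12). Cxcl1, Cxcl2, Cxcl3 and Cxcl5, the chemokines that recruit neutrophils after injury or infection, lay between 0.412 and 6.64 CPM in all libraries. The edgeR test called 0 of these 4 genes in any comparison, and so did DESeq2. Cxcl1, Cxcl2 and Cxcl3 are close paralogs, so how reads were divided among them is uncertain.

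The classic inflammatory cytokines were close to the limit of detection. Tnf had 18, 1 and 5 counts in WT, 7, 2 and 0 counts in C/+, and none in C/C. Il1a had 8 counts in WT 1 and none in the other WT libraries, 20, 4 and 1 in C/+, and none in C/C. Csf3, the granulocyte growth factor, had at most 4 counts and Ccl2, the monocyte chemokine, at most 2 in any library. These 4 genes were too low to be tested, and a level of up to 0.0558 to 0.176 CPM, depending on the library, is compatible with no count (3 counts, counting error only). Il1b ranged from 0 to 1.04 CPM, Il6 from 0.0933 to 1.01, and Il18, an IL-1 family cytokine held in epithelium, from 0.443 to 1.70. The acute-phase gene Saa3 stayed at or under 0.491 CPM and Ccl20, the ligand that draws CCR6+ cells, at or under 1.17 CPM. No inflammatory cytokine gene of the set therefore exceeded 2 CPM in any library.

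Growth factors for macrophages were the better expressed cytokines. Il34, a ligand of the CSF1 receptor, stood at 45.6 to 64.8 CPM, and Csf2, which encodes the GM-CSF that alveolar macrophages need, at 16.6 to 21.5 CPM. Neither was called by edgeR in any comparison. Csf2 stood at 16.6 to 18.4 CPM in WT and at 19.4 to 21.5 CPM in C/+, ranges that did not overlap, while the C/C libraries at 19.3 and 16.6 CPM lay below all C/+ libraries.

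Icam1, Cxcl17 and Tnfrsf1a, which follow Cxcl15 in level per length, were not called by edgeR in any comparison. Icam1 measured 585, 640.1 and 570.4 CPM in WT, 422, 503 and 586 CPM in C/+, with 562 and 573 CPM in C/C, with overlap between all groups. Tnfrsf1a measured 95.0, 125 and 120.3 CPM in WT, 113, 122 and 115 CPM in C/+, with 97.8 and 105 CPM in C/C, where the C/C libraries were below all C/+ libraries and within the WT range. Cxcl17 was more variable. It measured 36.1, 21.8 and 20.5 CPM in WT, 33.3, 41.6 and 44.3 CPM in C/+, with 35.7 and 60.3 CPM in C/C, with WT 1 inside the range of the reporter libraries. Its difference between C/C and WT was 0.87 on the log2 scale (SE 0.27, edgeR adjusted p = 0.0931). Cxcl17 was called there by DESeq2, with no low-count filter and without WT 1, and in C/+ against WT with no low-count filter and without WT 1.

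The comparison of C/C with C/+ asked what differs between the ChiaRed+ cells of homozygous and heterozygous mice. The inhibitors Nfkbiz, Nfkbia and Nfkbib and the chemokine Cxcl16 were higher in C/C, and Cxcl12, Cx3cl1 and Csf1 were lower. These 7 are 7 of 36 tested genes, where 7.08% of all genes were called. By direction, 4 of 36 were higher, beside 1.75% of all genes, and 3 of 36 were lower, beside 5.33% of all genes. The median log2 fold change of the 36 was 0.01, beside -0.00817 for all genes, and 29 genes were not called.

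Of the 4 IkB genes in the set, 3 were higher in C/C. Nfkbid and Bcl3, IkB family genes outside the set, were not called by edgeR against C/+. Their log2 differences were 0.58 (SE 0.28, adjusted p = 0.279) and 0.44 (SE 0.25, adjusted p = 0.361). Nfkbiz encodes IkB-zeta, a nuclear member that works as a cofactor for a subset of NF-kB targets. It measured 86.7, 48.7 and 67.6 CPM in C/+ and 221 and 180.4 CPM in C/C, beside 81.3, 87.1 and 109 CPM in WT. Both C/C libraries were well above the highest of the others, and C/+ 2 was the lowest of all. The means were 201 ± 29.0 CPM (SD, n = 2) and 67.7 ± 19.0 CPM (SD, n = 3), a fold change of 2.96 (log2 1.57, SE 0.21, edgeR adjusted p = 0.00232).

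Nfkbia encodes IkB-alpha, the inhibitor that is degraded and then resynthesised when NF-kB is active. It measured 73.0, 52.8 and 56.9 CPM in C/+ and 111 and 80.3 CPM in C/C, beside 46.1, 50.5 and 56.2 CPM in WT. The C/C libraries were the highest of the 8, and C/C 2 lay close above C/+ 1. The fold change was 1.57 (log2 0.65, SE 0.17, edgeR adjusted p = 0.0454). Nfkbib, which encodes IkB-beta, measured 16.1, 20.01 and 21.4 CPM in C/+ and 26.6 and 35.1 CPM in C/C, beside 24.3, 21.2 and 19.5 CPM in WT. The 2 C/C libraries were again above all others, and the log2 fold change was 0.69 (SE 0.17, edgeR adjusted p = 0.0338). Nfkbie, the gene of IkB-epsilon, stayed at 2.35 to 5.04 CPM, with a log2 difference of -0.06 (SE 0.32). Summed over the 4 genes, the IkB proteins stood at 126 to 178 CPM in C/+ and at 362 and 299 CPM in C/C.

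The chemokines with a transmembrane stalk went in opposite directions. Cxcl16, a membrane-bound scavenger receptor and the ligand of CXCR6, measured 81.3, 74.4 and 77.9 CPM in C/+ and 134 and 129.7 CPM in C/C, beside 98.9, 82.6 and 87.5 CPM in WT. The spread within each group was small and the groups did not overlap. Its fold change was 1.69 (log2 0.76, SE 0.10, edgeR adjusted p = 0.00232). Cx3cl1, fractalkine, measured 32.5, 32.2 and 27.1 CPM in C/+ and 20.7 and 17.8 CPM in C/C, beside 26.5, 26.8 and 26.1 CPM in WT. The C/C libraries were the lowest of the 8. Its log2 fold change was -0.67 (SE 0.13, edgeR adjusted p = 0.0108).

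Cxcl12, the ligand of CXCR4 and a product typical of stromal and endothelial cells, measured 51.3, 55.9 and 22.6 CPM in C/+ and 2.82 and 1.02 CPM in C/C, beside 14.0, 4.41 and 3.77 CPM in WT. All C/+ libraries were above all others and the C/C libraries were the lowest. The log2 fold change was -4.48 (SE 0.70, edgeR adjusted p = 0.00451). Csf1, the macrophage growth factor, measured 18.1, 20.99 and 16.0 CPM in C/+ and 9.96 and 7.12 CPM in C/C, beside 23.6, 18.2 and 12.1 CPM in WT. Both C/C libraries were below all others. Its log2 fold change was -1.10 (SE 0.27, edgeR adjusted p = 0.0334).

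**Figure D2:**
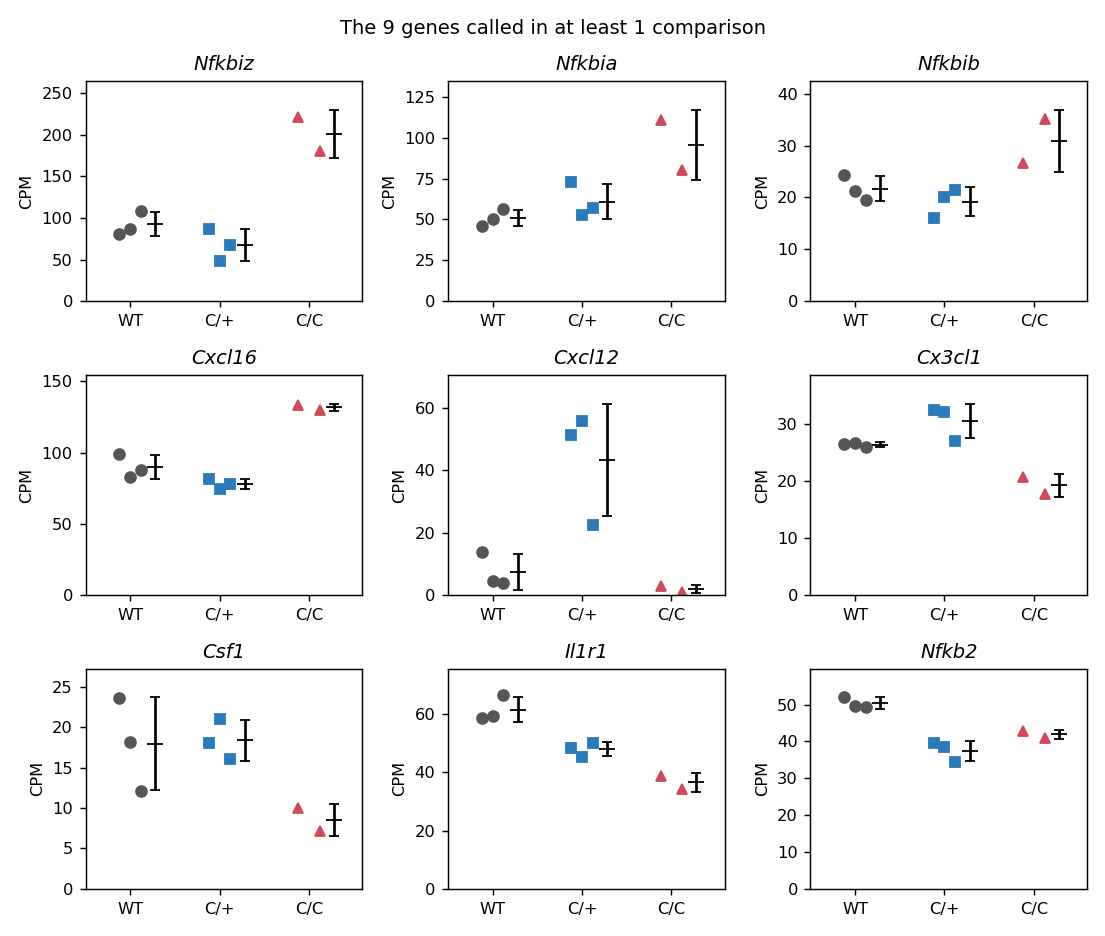
Levels in CPM of the 9 genes called in at least 1 comparison, by group; each symbol is a library and the bar beside it is the group mean with its SD (n = 3, 3 and 2). In Nfkbiz, Nfkbia, Nfkbib and Cxcl16 the C/C libraries sit above all others, while in Cxcl12 the C/+ libraries stand apart at 22.6 to 55.9 CPM.

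Outside the IkB proteins, chemokines and cytokines, edgeR called no gene of the set between C/C and C/+. None of the 5 NF-kB subunits, the 5 signal regulators (Tnfaip3, Tnip1, Birc2, Birc3 and Traf1), the 3 receptors (Il1r1, Tnfrsf1a and Il6ra) and the 3 effector targets (Icam1, Saa3 and Tnfaip2) was called by edgeR, with 2 subunits, 0 regulators, 2 receptors and 1 effector target at an unadjusted p under 0.05. DESeq2 called Il1r1 and Tnfaip2 as lower in C/C, as did the fit without WT 1 for Il1r1 and that with no low-count filter for Tnfaip2. Rela, the main activating subunit, stood at 88.4 to 96.8 CPM in C/+ and at 105 and 111 CPM in C/C, a log2 difference of 0.21 (SE 0.09, adjusted p = 0.232). Tnfaip3, whose product A20 is a feedback inhibitor of NF-kB and whose promoter holds a kappaB match, measured 16.6, 21.5 and 14.6 CPM in C/+ and 22.2 and 19.2 CPM in C/C, with overlap and a log2 difference of 0.23 (SE 0.19). Traf1, an adaptor of TNF receptors, stood at 158 to 214 CPM in all libraries, and the ubiquitin ligase genes Birc2 and Birc3 at 33.5 to 39.98 and 62.8 to 85.5 CPM. Tnip1, a partner of A20, stood at 32.0 to 40.1 CPM, the subunit genes Relb and Rel at 11.8 to 15.6 and 0.588 to 2.92 CPM, and Il6ra, the IL-6 receptor chain, at 1.31 to 3.44 CPM. Tnfaip2, a TNF-induced gene, was at 0.588 to 1.99 CPM in C/+ and at 0.138 and 0.182 CPM in C/C, without a call by edgeR (log2 -2.76, SE 0.88, adjusted p = 0.0959). The medians of the subunits and of the signal regulators were 0.21 and 0.02 on the log2 scale. Those of the receptors and of the effector targets were -0.39 and -1.87, beside 0.67 for the 4 IkB genes of the set. Among the effector targets, Saa3 and Tnfaip2 averaged under 1 CPM.

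The calls on Nfkbiz and Cxcl16 held when any of the 8 libraries was left out (largest edgeR adjusted p = 0.0407), whereas that on Cxcl12 was lost without C/C 2 (0.0641) and that on Cx3cl1 without C/C 1 (0.0693) or C/C 2 (0.147). Csf1 and Nfkbib lost their calls without WT 2, C/+ 1, C/+ 2, C/C 1 or C/C 2 (adjusted p of 0.0549 to 0.282 and of 0.0538 to 0.329), and Nfkbia without WT 2, WT 3, C/+ 2, C/+ 3, C/C 1 or C/C 2 (0.0513 to 0.434). The replicate block also ended the calls on Nfkbia (0.0683) and Nfkbib (0.0983), a filter of 1 CPM in 5 libraries (0.0683) and the compared groups alone (0.0512) that on Nfkbia, and female libraries alone those on Cx3cl1 (0.0694) and Nfkbib (0.0818).

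The comparison of C/C with WT sets homozygous ChiaRed+ cells against the whole epithelial gate of wild-type mice, so sort and genotype cannot be told apart. Nfkbia, Nfkbiz and Cxcl16 were higher in C/C and Il1r1 was lower. That is 4 of 36 genes called, beside 2.98% of all genes. By direction, 3 of 36 were higher, beside 1.62% of all genes, and 1 was lower, beside 1.36%. The median log2 fold change of the 36 genes was -0.14, beside -0.03 for all genes. It shares the C/C libraries with the comparison above.

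Nfkbia averaged 51.0 ± 5.07 CPM (SD, n = 3) in WT and 95.5 ± 21.5 CPM (SD, n = 2) in C/C, a fold change of 1.87 (log2 0.91, SE 0.17, edgeR adjusted p = 0.0289). Nfkbiz averaged 92.4 ± 14.5 CPM in WT, and its log2 fold change was 1.12 (SE 0.21, edgeR adjusted p = 0.0305). For Cxcl16 the WT mean was 89.7 ± 8.36 CPM and that of C/C 132 ± 2.76 CPM, a log2 fold change of 0.55 (SE 0.10, edgeR adjusted p = 0.0277). In each of these genes both C/C libraries lay above all WT libraries. Nfkbib had a log2 difference of 0.51 (SE 0.17) that was not called by edgeR (adjusted p = 0.112) but was with no low-count filter, and its groups did not overlap either. Cxcl12 was lower by a log2 difference of -1.94 (SE 0.65, edgeR adjusted p = 0.118), called only with no low-count filter and with the replicate block. Tnfaip2, at -2.42 (SE 0.87, edgeR adjusted p = 0.140), was called only with no low-count filter.

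Il1r1 encodes the signalling receptor for IL-1. It measured 58.7, 59.2 and 66.4 CPM in WT, 48.5, 45.3 and 50.0 CPM in C/+, and 38.8 and 34.2 CPM in C/C. The groups formed 3 steps that did not overlap, with WT highest and C/C lowest. C/C was below WT by a log2 fold change of -0.75 (SE 0.11, edgeR adjusted p = 0.0123), and the smaller steps were not called by edgeR, at -0.36 (SE 0.10, adjusted p = 0.0711) for C/+ against WT and -0.39 (SE 0.11, adjusted p = 0.0626) for C/C against C/+. DESeq2 called both smaller steps, and the fit with no low-count filter that of C/+ against WT. Csf1 and Cx3cl1 had log2 differences of -1.07 (SE 0.27) and -0.46 (SE 0.13) from WT, neither called by edgeR (adjusted p = 0.0607 and 0.0769). DESeq2 called both, and Csf1 was also called with no low-count filter, with the replicate block, with sex as a covariate and without WT 3, and Cx3cl1 without C/+ 3. Every call in C/C against WT was lost without WT 2, C/C 1 or C/C 2 (edgeR adjusted p of 0.0517 to 0.266), and that on Cxcl16 also without WT 3 (0.0612) or C/+ 2 (0.0528). With the replicate number as a block, Nfkbia (0.0527) and Cxcl16 (0.0585) were not called.

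C/+ against WT compares heterozygous ChiaRed+ cells with the whole wild-type gate, again with sort and genotype together. Cxcl12 was higher and Nfkb2 lower in C/+, 2 of 36 genes, beside 3.92% of all genes. The higher call is 1 of 36, beside 3.42% of all genes, and the lower call 1 of 36, beside 0.503%. The median log2 fold change of the 36 was -0.06, beside 0.00496 for all genes. Cxcl12 averaged 7.38 ± 5.71 CPM in WT and 43.3 ± 18.1 CPM in C/+ (SD, n = 3 each), a log2 fold change of 2.54 (SE 0.53, edgeR adjusted p = 0.0308). The highest WT library, WT 1 at 14.0 CPM, was below the lowest C/+ library, C/+ 3 at 22.6 CPM. Nfkbiz was lower in C/+ by a log2 difference of -0.45 (SE 0.19, edgeR adjusted p = 0.225), called only with no low-count filter.

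Nfkb2 encodes p100, the precursor that restrains and then feeds the non-canonical NF-kB pathway. It measured 52.2, 49.7 and 49.2 CPM in WT, 39.5, 38.5 and 34.3 CPM in C/+, and 42.8 and 40.9 CPM in C/C. WT libraries were above all reporter libraries, and C/+ was lower than WT by a log2 fold change of -0.43 (SE 0.09, edgeR adjusted p = 0.0335). Nfkb1, which encodes the p105 precursor of p50, had the same order between these groups, with 100.2, 86.7 and 92.5 CPM in WT and 71.3, 78.0 and 73.5 CPM in C/+, but was not called by edgeR (log2 -0.33, SE 0.09, adjusted p = 0.0687). DESeq2 called it, as did the fit with sex as a covariate. In C/C it stood at 89.4 and 89.9 CPM, inside the WT range. Leaving out any of the 8 libraries lost the call on Nfkb2 (edgeR adjusted p of 0.0521 to 0.0990), as did the replicate block (0.0650). The call on Cxcl12 was lost without WT 2, WT 3, C/+ 1 or C/+ 2 (0.0892 to 0.104).

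**Figure D3:**
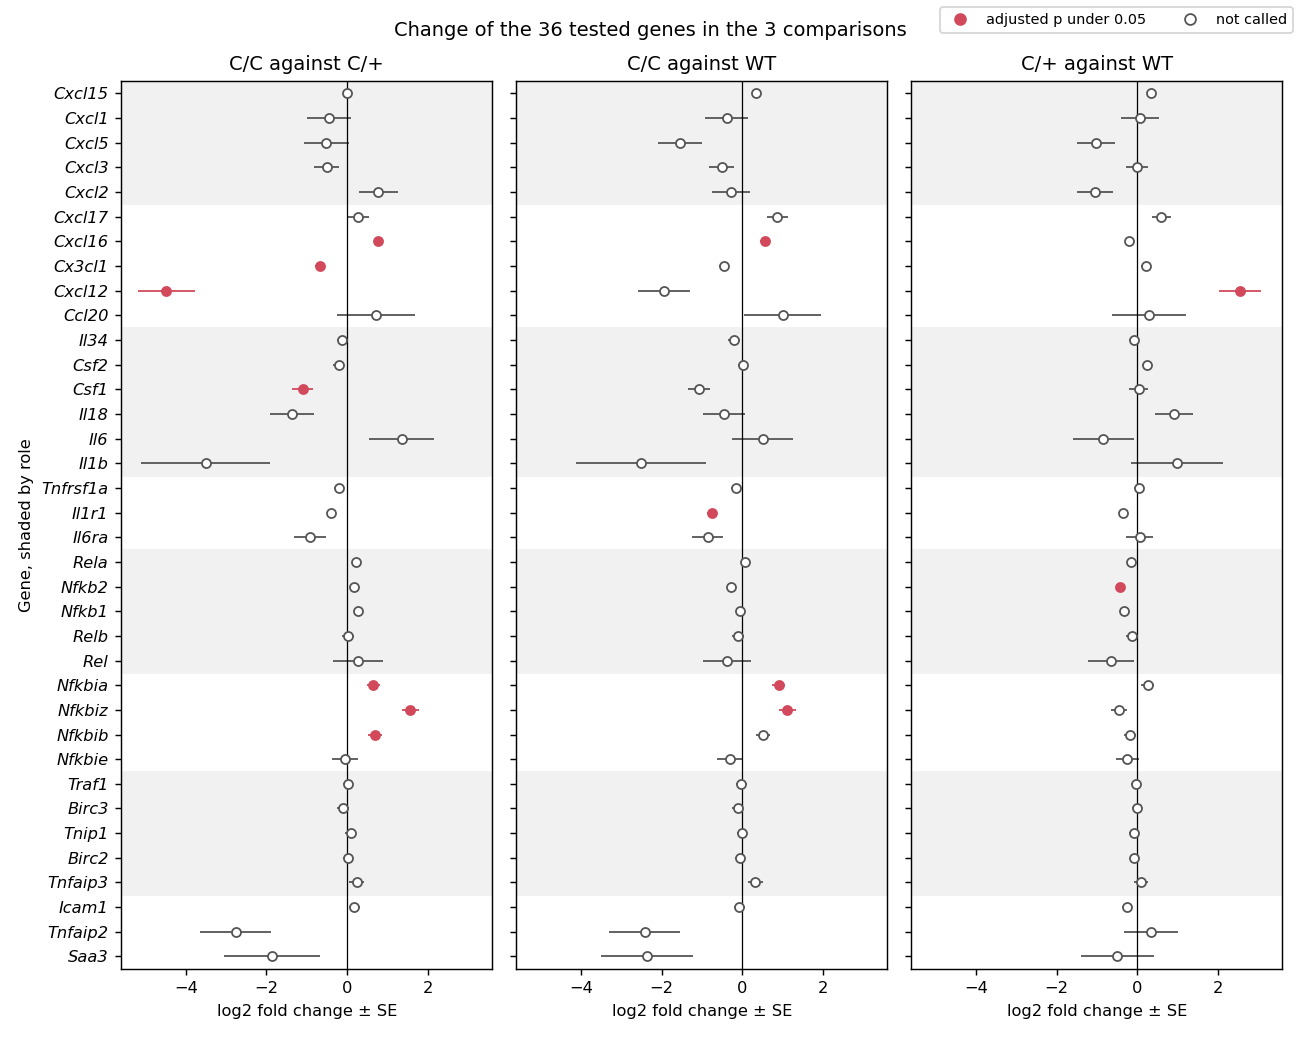
Log2 fold change with its SE for each of the 36 tested genes in the 3 comparisons, shaded by role; filled points have an adjusted p under 0.05. Most genes of the signalling core lie close to 0 with short bars, the 3 filled IkB points in the left panel range from 0.65 to 1.57, and the longest bar in each panel is that of Il1b, a gene at 0 to 1.04 CPM.

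The rest of the pathway was read from a wider list. Of 47 further genes for NF-kB kinases, adaptors, ubiquitin enzymes and receptors, 45 were tested. In C/C against C/+, 2 of the 45 were lower and none higher (Tlr3 and Cd40), in C/C against WT 1 was lower (Tlr4), and in C/+ against WT none was called by edgeR, with 6 at an unadjusted p under 0.05. The share of all genes called lower was 5.33% in the comparison of C/C with C/+ and 1.36% in that of C/C with WT, so these counts are near the background. Their median log2 fold changes were -0.03, -0.11 and -0.05. Tlr3, the receptor for double-stranded RNA, measured 14.5, 13.4 and 17.7 CPM in C/+ and 8.19 and 8.60 CPM in C/C (log2 -0.85, SE 0.16, edgeR adjusted p = 0.00869). Tlr4, the receptor for bacterial lipopolysaccharide, measured 24.6, 27.5 and 27.7 CPM in WT and 17.0 and 15.8 CPM in C/C (log2 -0.70, SE 0.12, edgeR adjusted p = 0.0236), with C/+ between them at 19.8 to 22.6 CPM. For these receptors the groups did not overlap, as for Il1r1. Cd40, a receptor of antigen-presenting and endothelial cells, was at 0.412 to 1.70 CPM in C/+ and had 0 and 2 counts in C/C.

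Of 20 further NF-kB targets 17 were tested, and 2 were lower in C/C than in C/+ (Nos2 and Vcam1) and 1 lower in C/C than in WT (Nos2). The shares of all genes called lower were 5.33% and 1.36% in these comparisons. Nos2, the inducible nitric oxide synthase, measured 1.58, 4.03 and 2.49 CPM in WT, 2.90, 2.05 and 1.88 CPM in C/+, with 0.344 and 0.626 CPM in C/C, below all other libraries. Its log2 fold change was -2.24 (SE 0.50, edgeR adjusted p = 0.0226) against C/+ and -2.46 (SE 0.50, adjusted p = 0.0368) against WT. Vcam1, an adhesion molecule of endothelium, was at 1.41 to 4.34 CPM in C/+ and at 0.207 and 0.313 CPM in C/C. None of the 17 was called in C/+ against WT by edgeR, with 5 at an unadjusted p under 0.05. Lcn2, an antibacterial product of stimulated epithelium, stood at 604 to 1139 CPM and was not called by edgeR in any comparison. Of 16 further chemokines 6 had enough counts to be tested and none was called by edgeR, with at most 1 at an unadjusted p under 0.05 in a comparison.

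Of 16 chemokine receptors 5 were tested. In C/C against C/+, 4 of the 5 were lower (Cxcr4, Ackr2, Ackr3 and Ackr4), and in C/+ against WT 3 were higher (Cxcr4, Ackr3 and Ackr4). Beside these, 5.33% of all genes were lower in the first comparison and 3.42% higher in the second. The called receptors include both receptors of Cxcl12. Ackr3, which takes up and clears Cxcl12, measured 2.33, 2.09 and 1.38 CPM in WT, 13.3, 11.9 and 7.70 CPM in C/+, with 1.08 and 1.02 CPM in C/C. Cxcr4, the signalling receptor, measured 1.94, 0.806 and 1.04 CPM in WT and 4.63, 4.20 and 3.23 CPM in C/+, with 1.35 and 1.04 in C/C. As for Cxcl12, all C/+ libraries were above all others. The log2 fold changes of Ackr3 were -3.39 for C/C against C/+ (SE 0.34, edgeR adjusted p = 0.000775) and 2.52 for C/+ against WT (SE 0.28, adjusted p = 0.00906).

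Markers of cells outside the epithelial gate moved in the same samples as Cxcl12. All 12 endothelial markers were lower in C/C than in C/+ and higher in C/+ than in WT. In the same 2 comparisons 5 and 4 of 5 mesothelial markers and 6 and 5 of 8 mesenchymal markers were called in these directions. The shares of all genes called in these directions were 5.33% and 3.42%. Summed endothelial markers were 291, 135 and 73.2 CPM in WT, 926, 960.4 and 572 CPM in C/+, with 65.6 and 58.5 CPM in C/C. Within WT, WT 1 had the most Cxcl12 and the highest endothelial sum, but WT 2, with 4.41 CPM of Cxcl12, had the highest mesenchymal (40.1 CPM) and mesothelial (26.4 CPM) sums. Pecam1 stood at 67.5 to 119 CPM in C/+ and at 5.21 and 6.05 CPM in C/C. Mesenchymal markers summed to 80.0 to 217 CPM in C/+ and to 14.2 to 40.1 CPM in WT and C/C, and mesothelial markers to 56.2 to 171 and to 5.42 to 26.4 CPM. The part of these cells in Cxcl12, Vcam1, Cd40 and the chemokine receptors was not tested. Nor was it tested for Csf1 and Cx3cl1, which were lower in C/C than in C/+ but not called by edgeR in C/+ against WT. Club cell markers moved likewise, with 6 of 8 lower in C/C than in C/+ and 6 of 8 higher in C/+ than in WT, whereas edgeR called 0 of 10 alveolar type 2 markers in any comparison, with 1, 4 and 2 at an unadjusted p under 0.05.

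Stress and immediate early genes moved in the same samples as the IkB proteins. In C/C against C/+, all 8 heat shock genes (median log2 1.99) and 8 of 15 immediate early genes (median 1.39) were higher, among them Hspa8, a heat shock chaperone, Zfp36, an RNA-decay factor, and Egr1. Against WT it was 6 of 8 and 2 of 15. The shares of all genes called higher in C/C were 1.75% against C/+ and 1.62% against WT. In C/+ against WT none of either list was called by edgeR, with 3 of 8 and 0 of 15 at an unadjusted p under 0.05. The immediate early genes summed to 3297, 6142 and 9521 CPM in WT, 7095, 4312 and 4346 CPM in C/+, with 16699 and 13086 CPM in C/C. The library with the most Nfkbiz and Nfkbia, C/C 1, had the highest sums of both lists, and among the C/+ libraries C/+ 1 had the most immediate early counts, Nfkbia and Nfkbiz. Nfkbib did not follow within groups: it was higher in C/C 2 (35.1 CPM) than in C/C 1 (26.6 CPM) and lowest in C/+ 1 (16.1 CPM). Among the WT libraries, the immediate early sum, Nfkbiz and Nfkbia all rose from WT 1 to WT 2 to WT 3. The heat shock sum did not: WT 1 had the highest outside C/C (702 CPM) and the lowest Nfkbiz and Nfkbia of the WT libraries. The part of tissue handling or stress in the IkB proteins was not tested.

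**Figure D4:**
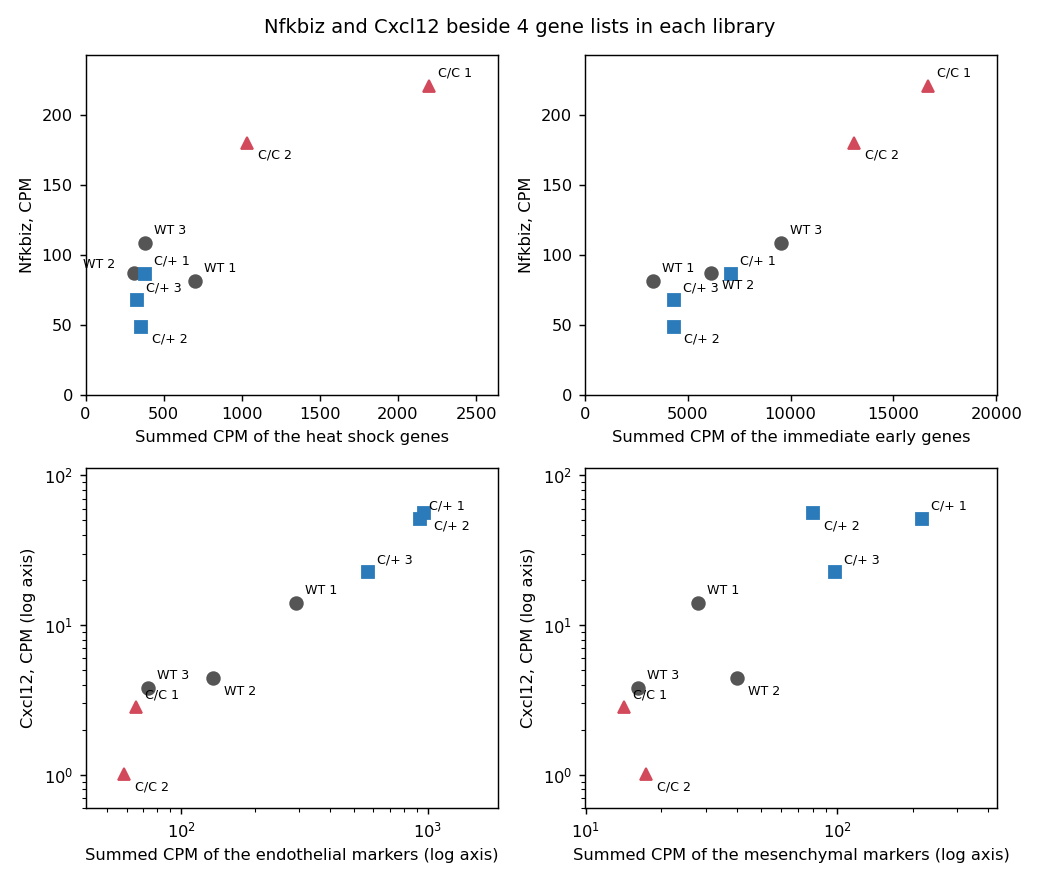
Nfkbiz (upper panels, CPM) against the summed CPM of 8 heat shock and of 15 tested and 1 untested immediate early genes, and Cxcl12 (lower panels, log axes) against summed endothelial and mesenchymal markers; each symbol is a labelled library. Both C/C libraries are highest in both upper panels, and the C/+ libraries are highest in both lower panels.

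Leukocyte markers drew no call. Of 12 markers 8 were tested and none was called by edgeR in any comparison, with 0, 2 and 1 at an unadjusted p under 0.05. Their median log2 fold changes were -1.49 in C/C against C/+ (5 of 8 negative) and -1.83 in C/C against WT (6 of 8 negative). In C/+ against WT the median of these markers was 0.08 (4 of 8 negative). Without Lyz2, which alveolar type 2 cells also express, the leukocyte markers summed to 7.21 to 13.9 CPM in all libraries. Alveolar macrophage markers summed to 5.14 and 6.57 CPM in C/C, 6.53 to 21.8 CPM in WT and 17.6 to 38.3 CPM in C/+, and the 2 of 5 tested that were lower in C/C than in C/+, Fabp4 and Car4, are also expressed by endothelium.

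Some of these genes share sequence on the opposite strand with a neighbour, and the strand used in counting is not given in the sources used here, so such reads cannot be told apart. Cxcl16 overlaps Zmynd15, which stood at 8.39 to 14.0 CPM and was not called between C/C and C/+ (log2 0.54, SE 0.18). Nfkbib overlaps Sirt2, at 67.8 to 82.7 CPM (log2 0.23, SE 0.09, not called), and Nfkb2 overlaps Psd, at 0.849 to 2.02 CPM.

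The genes whose log2 CPM followed Nfkbia most closely over the 8 libraries were Hprt (Pearson r = 0.984), Cdc42 (0.974), Sec22b (0.973) and Actb (0.968). They encode a purine salvage enzyme, a small GTPase, a vesicle fusion protein and beta-actin, and none of the 4 belongs to the set. Actb and Sec22b were called higher in C/C than in C/+ (log2 0.57 and 0.37, edgeR adjusted p = 0.0166 and 0.0494) and Hprt and Cdc42 were not. The libraries differ in group, sort and depth, so the r values are only a description of 8 points.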

How the data were processed

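RNA of sorted EpCAM+CD45- lung cells was extracted with DNase treatment and made into stranded mRNA libraries, per the labels. The authors deposited unnormalised counts per gene for 43432 Ensembl identifiers in 8 libraries. Per the submitters' processing notes the tools were STAR 2.4.2a and DESeq2 and the build was GRCh38, which is human although the identifiers are mouse. Counter, strand setting and annotation were not given in the sources used here. Symbols, lengths and overlaps came from the annotation of GRCm38 (42462 identifiers with a symbol).

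Genes passing edgeR's filterByExpr (14906) were fitted in 1 quasi-likelihood model with a mean per group over all 8 libraries (edgeR 4.0.16, R 4.3.3, TMM factors 0.915 to 1.06), and p-values were adjusted over all tested genes. SE is the log2 fold change divided by the root of F. Log2 CPM for likeness used a prior count of 2. The members and lists were chosen with earlier results of these data known. The text gives per-library values for called members, Nfkbia, Nfkbiz, Cxcl15 and the 5 members highest per length; of other lists, examples are called genes of high level. Alternatives were DESeq2 1.42.0 (test or size factors), other filters, the compared groups alone, a replicate block, sex as a covariate and leaving out each library. Female libraries alone were added after the data were seen. The model was also run on counts simulated from its own fitted levels and spread, with changes put only into genes of 1 CPM or more. That run cannot speak to differences in cell content or stress, or to changes in genes under 1 CPM. Libraries of a group all differed by more than sampling noise. Of the genes most like Nfkbia, 1 is not reported here.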

Additional observations from a re-analysis of the deposited data

How the results depend on the processing

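The called genes of the set kept their direction under the alternatives run; genes outside the set were not followed through them. The number of the 36 genes called in C/C against C/+ (7) ranged from 2 to 8 when each library was left out in turn, in C/C against WT (4) from 0 to 5, and in C/+ against WT (2) from 0 to 2. The 0 arose without WT 2, C/C 1 or C/C 2 in C/C against WT, and without WT 2, WT 3, C/+ 1 or C/+ 2 in C/+ against WT. The DESeq2 Wald test called 8 genes in C/C against WT and 5 in C/+ against WT, and the fit with no low-count filter 9 and 5; the cause was not tested. In C/+ against WT, the compared groups alone left 1 call (Cxcl12). Over all genes, counts of 1056, 444 and 585 became 1609, 1476 and 1263 with DESeq2 and 1614, 1456 and 1299 with no filter, while leaving out C/C 1 or C/C 2 left 185 or 244 of C/C against C/+. With sex as a covariate 1348 and 1700 genes were called in C/C against WT and in C/+ against WT.

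Correlations of the deviations of same-numbered libraries ran from -0.206 to 0.087, and those of other-numbered libraries from -0.132 to 0.18. Deviations of the 2 C/C libraries mirror each other by construction. The check therefore cannot settle whether a shared number pairs libraries, and the labels do not say. With the replicate number as a block, 5, 4 and 1 of the 36 genes and 799, 176 and 457 of all genes were called. Leaving out a C/C library leaves 1, which is then assumed to vary like the other groups. Of the 36 tested, genes under 1 CPM had too few counts to show any but large differences.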
